A study of Homo sapiens with 34 samples.

Results

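The genes described here are 30 genes of cholesterol and fatty acid synthesis and of their control. They were taken by symbol from the gene tables, where they filled 33 of 37951 rows, since FDFT1, LSS and ACACA were each listed under 2 identifiers whose counts were summed. The path to cholesterol holds 18 of them: 7 enzymes from acetyl-CoA to farnesyl diphosphate, 3 from there to lanosterol and 8 from lanosterol to cholesterol. A further 4 are regulators or carriers of sterol, and 8 make, elongate or desaturate fatty acids or feed that synthesis. All 30 were expressed in every library, with no count of a member under 131.

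The cells were ESI017, a wild-type line of human pluripotent stem cells, and 17 conditions were sequenced as poly(A)-selected RNA with 2 replicates each, 34 libraries in all. On day 1, DE(a) was activin A at 100 ng/ml with CHIR99021 at 2 µM. APS held activin A at 30 ng/ml, bFGF at 20 ng/ml and CHIR99021 at 4 µM. MPS held the same activin A and bFGF with BMP4 at 40 ng/ml and CHIR99021 at 6 µM, and PPS was MPS without activin A. These treatments drive cells toward definitive endoderm or the anterior, mid or posterior primitive streak. After 24 h each of the 4 populations was collected or moved for another 24 h to one of 3 media, made for endoderm, paraxial mesoderm and lateral mesoderm. DE(b) held activin A at 100 ng/ml and LDN-193189 at 250 nM. PM held bFGF at 20 ng/ml with A-8301 at 1 µM and LDN-193189 at 250 nM. LM held BMP4 at 30 ng/ml with A-8301 at 1 µM and IWP2 at 4 µM. CHIR99021 activates WNT signaling and was given to every treated culture on day 1, LDN-193189 blocks BMP receptors, A-8301 blocks activin receptors and IWP2 blocks WNT secretion. The control was ESI017 without these factors, labelled 48 h. Control cells were kept in mTeSR PLUS and day 1 treatments were given in E6, while the labels followed here list no CHIR99021 in PM although a supplement to the study does. In each comparison with the control the factors and the change of basal medium cannot be told apart. For the populations collected at 24 h, the labelled time differs from that of the control as well.

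Cholesterol is built from acetyl-CoA through mevalonate, isoprenoids, squalene and lanosterol, and most enzymes of the path are transcribed together under SREBP-2, the product of SREBF2. When sterol in the endoplasmic reticulum is plentiful, INSIG proteins hold the SREBP precursor and its escort SCAP there, and transcription of the path falls. SREBP-1, the product of SREBF1, has fatty acid synthesis as its better known set of targets. In embryos cholesterol also serves to modify Hedgehog ligands, and dividing cells need both lipid classes for new membrane.

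Libraries held 15522780 to 23439799 estimated reads, and levels are given as CPM, the count of a gene scaled to a common library total, which allows a gene to be compared between libraries but not with another gene. Sums of marker genes followed the labels: a sum over 5 pluripotency genes was 3055 to 3280 CPM in the control and 237 to 918 CPM on day 2. The 5 endoderm genes summed to 3920 to 7038 CPM in DE(b), 5 paraxial genes to 969 to 1716 CPM in PM and 5 lateral genes to 564 to 2531 CPM in LM. A sum can hide the loss of single markers. The study reports low FOXA2 in DE(b) after MPS and PPS and a failure to express SOX17 after PPS. It concludes, from immunostaining as well, that mid-to-posterior streak cells lose endoderm potential. It adds that in DE(b) their transcriptomes stay similar to those of endoderm cells. In DE(b) the paraxial genes summed to 426 and 458 CPM after PPS and 7.13 and 9.825 CPM after DE(a), with APS and MPS between. In the control TBXT, SP5, MESP1, SOX17 and GATA6 were at 3 counts or fewer. The LM libraries also held 78.8 to 459 CPM over 5 genes listed for amnion, against 1.35 to 24.3 CPM in DE(b) and PM. These were TFAP2A, GATA3, ISL1, VTCN1 and GABRP, of which the study lists ISL1 as a lateral mesoderm marker. The DE(b) libraries held 71.9 to 355 CPM over 5 genes listed as neural, against 0.761 to 22.7 CPM in PM and LM. These were PAX6, SOX1, OTX2, SIX3 and LHX2, and SOX1 was at 3 counts or fewer in every DE(b) library. The part of these genes in the differences between media was not tested. These are bulk libraries, in which fewer cells of a type and less RNA per cell cannot be told apart.

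Levels of the sterol genes differed by the medium of day 2. Averaged over the 7 mevalonate pathway genes, log2(CPM + 1) was 6.24 to 6.73 in the 8 DE(b) libraries and 6.82 to 7.26 in the 8 LM libraries, ranges that did not overlap. It was 6.55 to 7.04 in PM, 6.73 to 7.11 at 24 h and 6.72 and 6.88 in the control. The 3 genes from farnesyl diphosphate to lanosterol averaged 7.44 to 8.07 in DE(b) and 7.83 to 8.53 in LM. The 8 later genes averaged 5.95 to 6.40 in DE(b) and 6.27 to 7.07 in LM. In both groups the DE(b) libraries were low but overlapped those of LM. Fatty acid genes did not share this order, with 8.87 to 9.20 in DE(b), 8.99 to 9.17 in PM and 8.55 to 9.06 in LM.

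**Figure D1:**
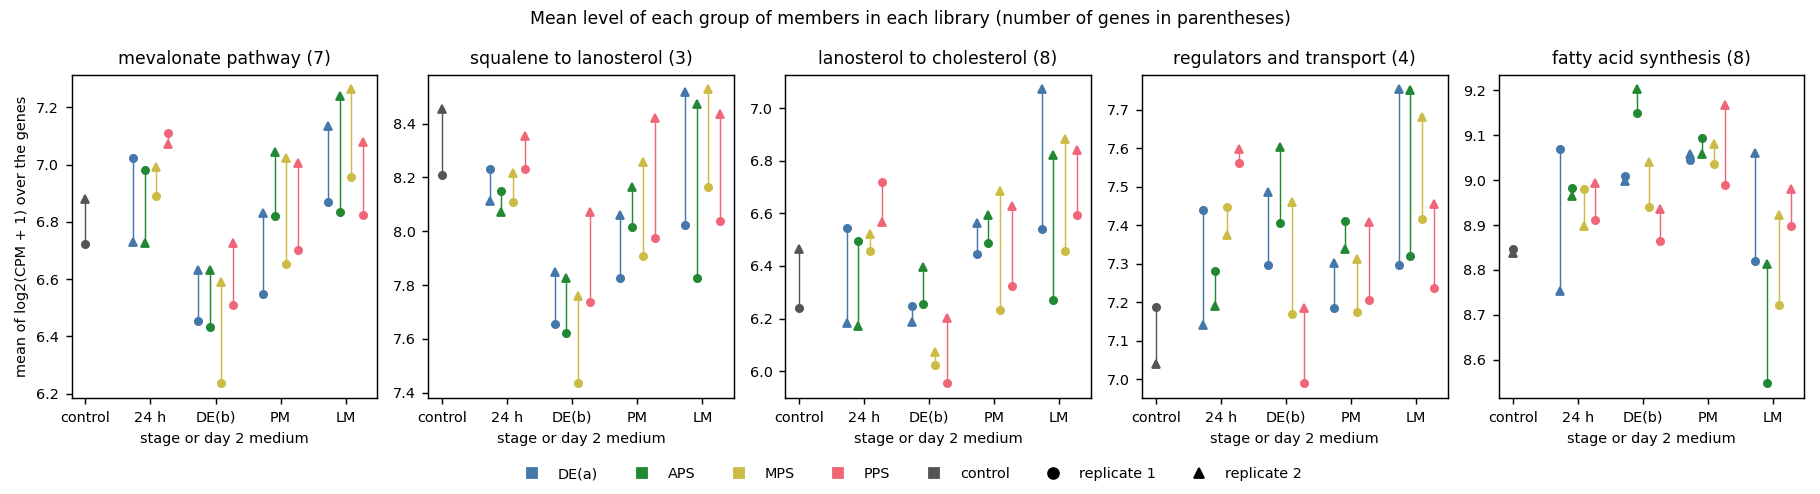
Mean of log2(CPM + 1) over the genes of each group of members (y axis) in each library, by stage or day 2 medium (x axis), colored by day 1 treatment, with circles for replicate 1 and triangles for replicate 2, joined by a line. The mevalonate pathway libraries of DE(b) lie between 6.24 and 6.73 and those of LM between 6.82 and 7.26, and in each DE(b), PM and LM condition the triangle of this panel is above its circle.

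To ask how these genes differed between the media of day 2, each day 2 medium was compared with the others over its 4 day 1 origins (8 libraries against 8). Between LM and DE(b), 14 of 30 members were higher in LM (46.7%, against 19.8% of the 17888 genes tested) and 3 were lower (10%, against 19.8%). Of the 18 cholesterol members, 11 were higher in LM and 0 were lower (0 also at an unadjusted p under 0.05 or by DESeq2), and their median log2 difference was 0.48, against 0.02 over all genes. The 11 were ACAT2, MVK, MVD, IDI1, FDPS, FDFT1, LSS, CYP51A1, MSMO1, NSDHL and SC5D. Of the 8 fatty acid members, ELOVL6 was higher and AACS and ACACA were lower, with a median of 0.07. Calls of LSS, SREBF1, SREBF2 and ELOVL6 in this comparison were lost when any of 3, 8, 8 and 2 single libraries was left out, with edgeR adjusted p of at most 0.0691, 0.105, 0.102 and 0.0863, and ELOVL6 was also lost with no filter on low counts.

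Against PM, DE(b) had 9 members lower (30.0%, against 21.6% of genes) and 3 higher (10%, against 21.5%). The 9 were ACAT2, MVK, IDI1, FDPS, CYP51A1, NSDHL, HSD17B7, SC5D and ELOVL6, and the 3 were TM7SF2, STARD4 and AACS. LM against PM had 9 members higher (30.0%, against 21.0%), namely ACAT2, HMGCS1, FDFT1, TM7SF2, MSMO1, SC5D, INSIG1, STARD4 and SCD, and 3 lower (10%, against 21.0%), namely HSD17B7, ACACA and AACS. The weaker calls were ACAT2, IDI1 and NSDHL in the former comparison (edgeR adjusted p up to 0.0876, 0.124 and 0.128 with any of 6, 11 and 8 libraries left out). In the latter they were ACAT2, HMGCS1 and SCD (up to 0.106, 0.0927 and 0.127 with any of 9, 8 and 8). RLE scaling lost IDI1 in the former, and a fit to only the libraries compared lost HMGCS1 and SCD in the latter. The 3 comparisons share libraries, so their counts are not separate evidence.

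Set against the 4 populations at 24 h, cells moved to DE(b) had 14 members lower (46.7%, against 26.2% of genes) and 3 higher (10%, against 24.8%). Of the 18 cholesterol members 12 were lower, with a median log2 difference of -0.47 against -0.02 over all genes, and TM7SF2 was higher. All 3 genes between farnesyl diphosphate and lanosterol fell. PM against 24 h gave 5 lower members (16.7%, against 25.1%), namely HMGCS1, MVD, IDI1, FDFT1 and STARD4, and FADS1 was higher (3.33%, against 23.1%). LM against 24 h gave 7 higher members (23.3%, against 27.4%), namely MVK, PMVK, TM7SF2, MSMO1, SC5D, INSIG1 and FADS1, and 6 lower (20.0%, against 28.6%), namely HSD17B7, DHCR7, SREBF1, FASN, ACACA and AACS. Without APS-24h replicate 2 the LM comparison kept 8 of its 13 calls. Calls near the threshold were lost when single libraries were left out: MVK, LSS and SREBF2 in DE(b) (edgeR adjusted p up to 0.0693, 0.102 and 0.149) and MVD and IDI1 in PM (up to 0.0687 and 0.133). In LM they were MVK, PMVK, MSMO1, DHCR7, INSIG1 and SREBF1 (up to 0.169, 0.125, 0.0597, 0.0728, 0.112 and 0.121), of which MVK was also lost with RLE scaling, PMVK with no filter and PMVK, DHCR7 and INSIG1 with only the libraries compared.

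**Figure D2:**
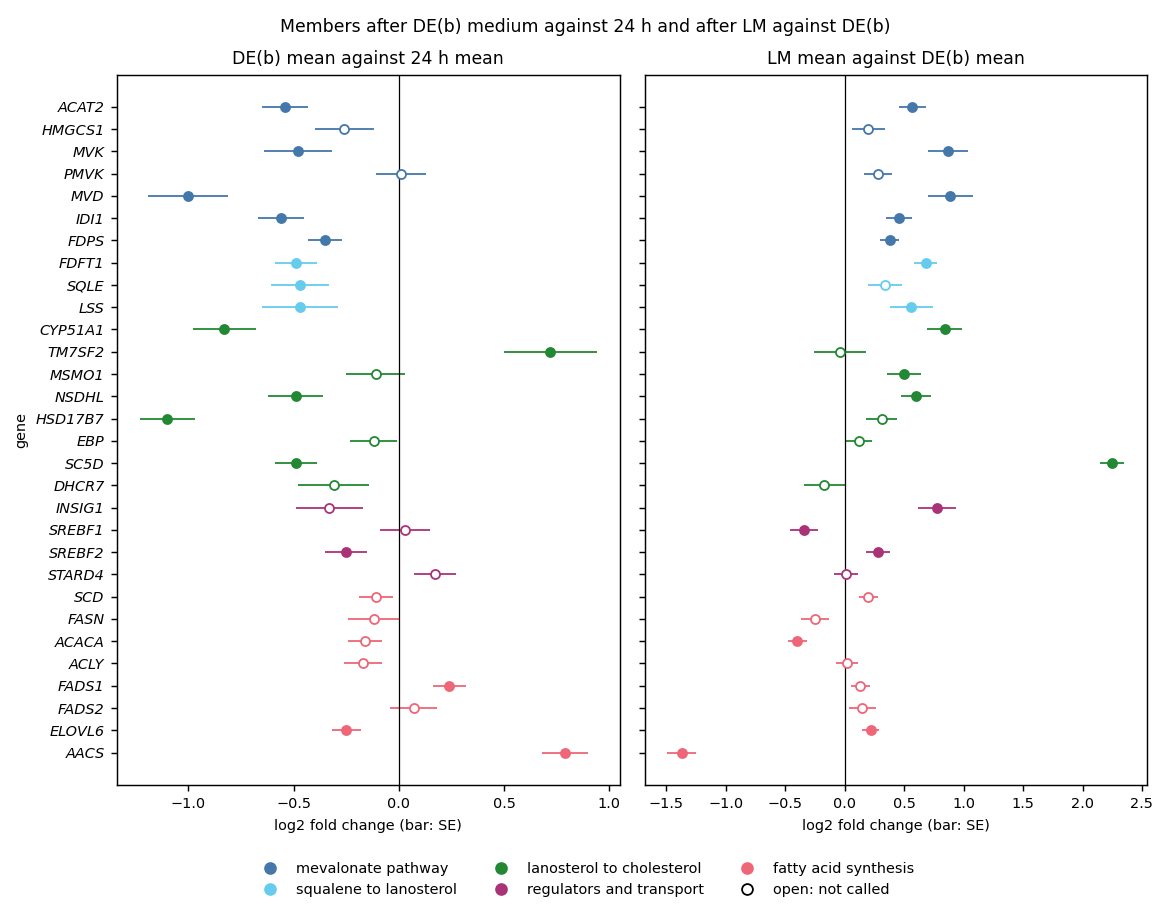
log2 fold change of each of the 30 members (x axis, with its SE as a bar) for the mean of the 4 DE(b) conditions against the 4 populations at 24 h (left) and for the mean of the 4 LM conditions against DE(b) (right). Colors give the role of the gene, and filled circles passed an adjusted p under 0.05. Most cholesterol members lie left of 0 in the left panel and right of 0 in the right panel, where SC5D is farthest at 2.25 and AACS lies at -1.37.

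Few members were called after the first 24 h. Against the 2 control libraries, which all of these comparisons share, DE(a) had 2 members higher, FADS1 and STARD4 (6.67%, against 10.3% of genes), and 0 lower (against 8.69%; 2 at an unadjusted p under 0.05, and 1 by DESeq2). APS had FADS1, HSD17B7 and STARD4 higher (10%, against 13.6%) and PMVK and FDFT1 lower (6.67%, against 11.0%). MPS had 5 higher (16.7%, against 16.6%), namely IDI1, CYP51A1, HSD17B7, STARD4 and FADS1, and PMVK and TM7SF2 lower (6.67%, against 13.4%). PPS had HSD17B7, STARD4 and FADS1 higher (10%, against 16.4%) and 0 lower (against 13.4%; 1 at an unadjusted p under 0.05, and 1 by DESeq2). FADS1 and STARD4 were thus called in all 4 populations. Medians over the 30 members were 0.13, 0.12, 0.14 and 0.23 on the log2 scale in DE(a), APS, MPS and PPS, against 0.00 to 0.03 over all genes. The numbers called changed with single libraries: DE(a) kept 1 without any of DE(a)-24h replicate 1, DE(a)-24h replicate 2 and Control replicate 1. APS had 2 without Control replicate 1 and 3 without either APS-24h library. MPS had 3 without MPS-24h replicate 1 or Control replicate 1, and PPS had 5 without PPS-24h replicate 1 or Control replicate 1. IDI1 and CYP51A1 in MPS were each lost without any of MPS-24h replicate 1, MPS-24h replicate 2 and Control replicate 1 (edgeR adjusted p up to 0.364 and 0.314), and also with RLE scaling. PMVK in APS and MPS was lost with no filter on low counts.

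After day 2, DE(b) against the control had 3 members higher, STARD4, FADS1 and AACS (10%, against 22.4% of genes), and 4 lower, ACAT2, PMVK, FDFT1 and SC5D (13.3%, against 22.9%). PM had 4 higher, CYP51A1, HSD17B7, STARD4 and FADS1 (13.3%, against 22.3%), and 3 lower, PMVK, FDFT1 and TM7SF2 (10%, against 22.7%). LM had 7 higher, MVK, CYP51A1, MSMO1, SC5D, INSIG1, STARD4 and FADS1 (23.3%, against 24.3%), and 2 lower, ACACA and AACS (6.67%, against 24.6%). Each of these 6 shares was below that of all genes, that of members higher in LM by little. Many calls against the control rested on 1 of its libraries. Without Control replicate 1, 3 members were called in PM and 5 in LM, and calls were lost that include AACS in DE(b), CYP51A1 and STARD4 in PM and MVK, CYP51A1, MSMO1 and INSIG1 in LM (edgeR adjusted p of 0.0831, 0.19, 0.296, 0.125, 0.375, 0.125 and 0.212). Without Control replicate 2, ACAT2 and SC5D were lost in DE(b) (0.677 and 0.184), and MVK and INSIG1 in LM (0.0915 and 0.146). A fit to only the libraries compared lost CYP51A1 and INSIG1 in LM.

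**Figure D3:**
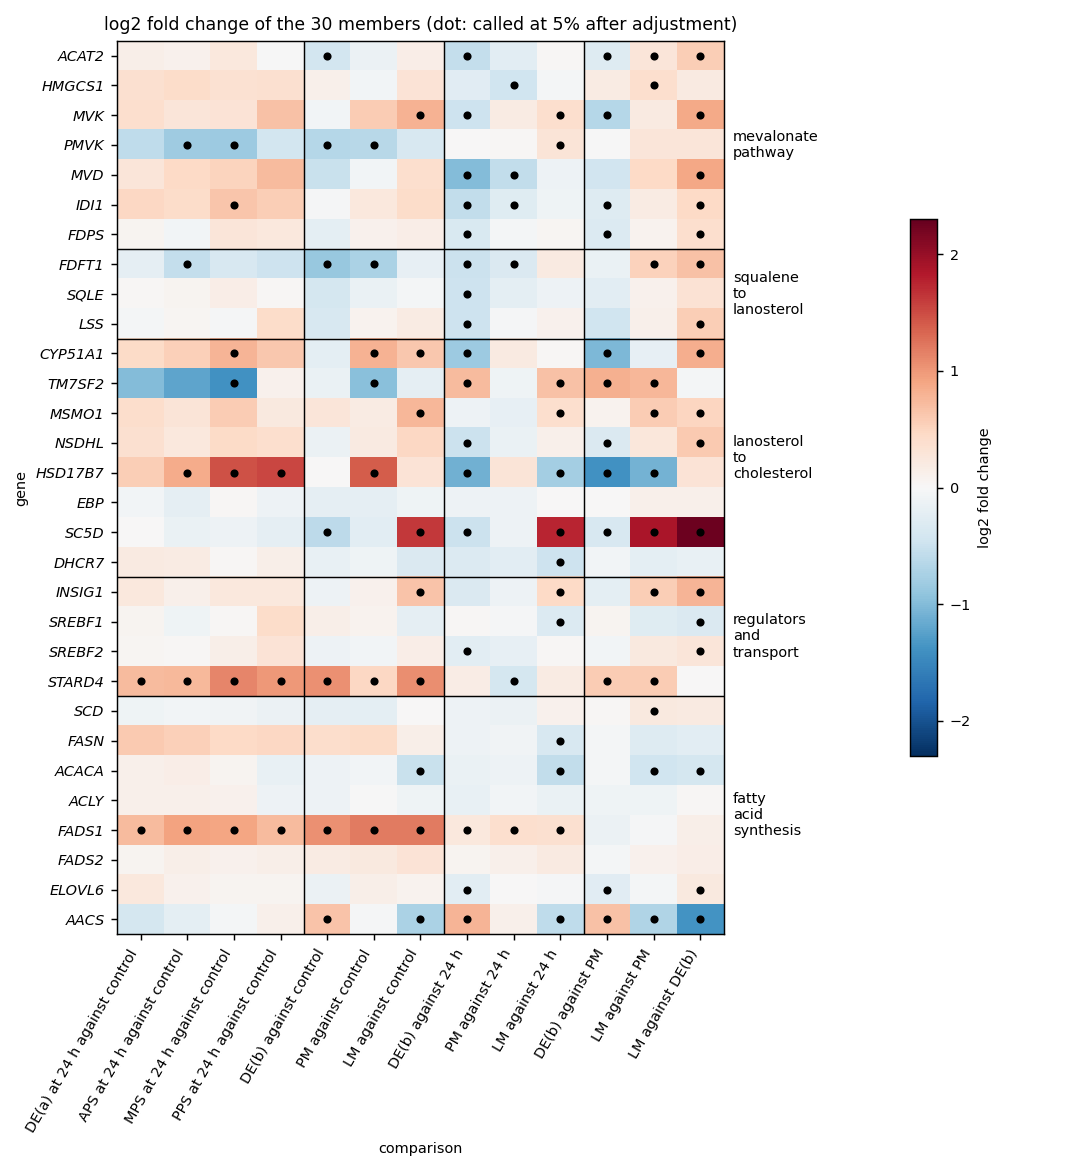
log2 fold change (color, red higher and blue lower in the condition named first) of the 30 members (rows, grouped by role) in the 13 comparisons (columns), with a dot where the adjusted p was under 0.05. Rows of FADS1 and STARD4 carry a dot in all 7 comparisons with the control, and the LM against DE(b) column holds 17 dots, 14 of them on red.

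Promoters of the members were read to show what the sterol genes have in common in sequence. RefSeq start sites (GRCh38.p14) were at hand for 26 of the 30 genes, and the 250 bases before each start were searched on both strands for CCAAT, the box bound by NF-Y, a known partner of SREBP, and for CACNCCAC, a core of the sterol regulatory element. Matches of these motifs may share letters at their ends. CCAAT was found in 13 of 15 cholesterol members (86.7%), 3 of 4 regulators and 3 of 7 fatty acid members (42.9%), against 37% of 27305 genes. CACNCCAC was found in 6 of 26 members (23.1%), IDI1, SC5D, INSIG1, SREBF2, SCD and ACACA, against 5.89% of genes. A match is a description of letters in this window and was not tested for binding. Printed here are stretches from 6 promoters that lie outside the annotated span of their own gene. Other transcripts over them were not looked for. INSIG1 and SREBF2 were chosen because they hold both motifs. MSMO1, HSD17B7, MVD and STARD4 were chosen because they were called between media or against the control. SCD also holds both motifs, and LSS and TM7SF2 were also called, but their stretches are not printed. Each of the 6 is printed in the direction of its gene, with both motifs, on either strand, in capitals.
INSIG1, chr7:155297650-155297732, plus strand: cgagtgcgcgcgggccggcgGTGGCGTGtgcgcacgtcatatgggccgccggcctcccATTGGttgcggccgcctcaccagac
SREBF2, chr22:41832953-41833023, plus strand: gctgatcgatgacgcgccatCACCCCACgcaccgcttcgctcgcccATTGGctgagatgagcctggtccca
MVD, chr16:88663162-88663270, minus strand: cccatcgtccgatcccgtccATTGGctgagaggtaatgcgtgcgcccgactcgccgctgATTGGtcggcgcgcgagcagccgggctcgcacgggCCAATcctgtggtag
MSMO1, chr4:165327464-165327659, plus strand: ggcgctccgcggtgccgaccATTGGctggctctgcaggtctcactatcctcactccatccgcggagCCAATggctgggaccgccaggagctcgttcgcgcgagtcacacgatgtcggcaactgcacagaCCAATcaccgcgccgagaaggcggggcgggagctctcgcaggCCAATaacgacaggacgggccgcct
HSD17B7, chr1:162790630-162790674, plus strand: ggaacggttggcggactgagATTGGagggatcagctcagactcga
STARD4, chr5:111512641-111512716, minus strand: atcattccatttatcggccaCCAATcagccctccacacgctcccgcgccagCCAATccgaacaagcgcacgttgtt

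MSMO1, with 4 CCAAT matches, MVD, with 3, and INSIG1, with 1 of each motif, were among the genes higher in LM than in DE(b), whereas STARD4, with 2, differed by 0.01 ± 0.10 on the log2 scale between them (edgeR adjusted p = 0.965). HSD17B7, with 1 CCAAT match, was higher in PM than in either. Of the members not printed, EBP, with 3 CCAAT matches, was called in none of the 13 comparisons. CYP51A1, with 0 of either motif, was higher in LM than in DE(b). A link between matches and levels was not tested.

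Among the mevalonate pathway genes, MVD, the decarboxylase that makes isopentenyl diphosphate, moved most. It was at 93.6 and 88.2 CPM in the control and 75.2 to 177 CPM (median 122) at 24 h. On day 2 it was at 43.8 to 89.3 CPM (median 61.0) in DE(b), 63.4 to 124 CPM (median 87.0) in PM and 83.6 to 149 CPM (median 116) in LM. DE(b) libraries were low, and their highest overlapped the lowest of LM. MVD fell from 24 h to DE(b) (log2 fold change -1.0 ± 0.19, edgeR adjusted p = 0.000147) and to PM (log2 fold change -0.56 ± 0.19, edgeR adjusted p = 0.0173). Inside replicates 1 and 2 the log2 difference was -1.21 and -0.70 for DE(b) and -0.82 and -0.15 for PM. MVD was higher in LM than in DE(b) (log2 fold change 0.89 ± 0.19, edgeR adjusted p = 0.000603). The fall in PM was lost without DE(a)-24h replicate 1 or PPS-PM replicate 1 (edgeR adjusted p of 0.0687 and 0.051).

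MVK, mevalonate kinase, was at 27.7 and 28.7 CPM in the control, 16.7 to 36.3 CPM (median 27.9) in DE(b), 30.4 to 55.0 CPM (median 42.3) in PM and 31.1 to 71.1 CPM (median 48.1) in LM. DE(b) libraries were low and overlapped the lower end of LM. The difference between these media was 0.87 ± 0.17 on the log2 scale (edgeR adjusted p = 0.000184), and that between DE(b) and PM was -0.66 ± 0.16 (0.00248). ACAT2, which joins acetyl-CoA units in the cytosol, ranged over 148 to 218 CPM in DE(b) and 222 to 303 CPM in LM, which did not overlap (log2 difference 0.57 ± 0.11, edgeR adjusted p = 0.000123).

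HMGCS1, which makes HMG-CoA, is the step before the rate-limiting reductase. It was at 499 and 774 CPM in the control and 733 to 873 CPM (median 781) at 24 h. Day 2 values were 531 to 799.9 CPM (median 678) in DE(b), 459.6 to 786 CPM (median 613) in PM and 526 to 1048 CPM (median 741) in LM. These ranges overlapped in every pair of stages, with the 24 h libraries close together near the top. HMGCS1 fell from 24 h to PM (log2 fold change -0.45 ± 0.14, edgeR adjusted p = 0.0103) and was higher in LM than in PM (log2 fold change 0.39 ± 0.14, edgeR adjusted p = 0.0255), but its difference of 0.20 ± 0.14 between LM and DE(b) did not pass the test (0.264).

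IDI1, which isomerizes isopentenyl diphosphate, was at 125 and 179.7 CPM in the control and 174 to 244 CPM (median 208) at 24 h. In the day 2 media it stood at 122 to 172 CPM (median 144) in DE(b), 152 to 207 CPM (median 193) in PM and 170.0 to 244 CPM (median 194) in LM. The 24 h libraries did not overlap those of DE(b), and LM spanned about the range of 24 h. Its fall to DE(b) was -0.56 ± 0.11 (edgeR adjusted p = 0.000275). FDPS, farnesyl diphosphate synthase, was low in DE(b), at 181 to 209 CPM in DE(b), below all libraries of PM and LM, and at 226 to 286 CPM in LM (0.38 ± 0.08, edgeR adjusted p = 0.000297).

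PMVK, phosphomevalonate kinase, was lower than the control in 4 of the 7 comparisons with it. The control had 17.3 and 11.1 CPM, the treated libraries 6.68 to 11.0 CPM at 24 h. After the second day it was at 8.12 to 9.64 CPM in DE(b), 7.35 to 11.9 CPM in PM and 8.03 to 12.5 CPM in LM. The control replicates lay far apart, both above the 24 h and DE(b) libraries, and the lower of them within the ranges of PM and LM. PMVK was lower than the control in APS (log2 fold change -0.82 ± 0.23, edgeR adjusted p = 0.0117), MPS (log2 fold change -0.83 ± 0.23, edgeR adjusted p = 0.00881), DE(b) (log2 fold change -0.65 ± 0.17, edgeR adjusted p = 0.00401) and PM. Without Control replicate 1 these 4 calls were lost (edgeR adjusted p of 0.256, 0.216, 0.317 and 0.332), and the APS and MPS calls were also lost without APS-24h replicate 2 (0.133) and MPS-24h replicate 1 (0.0895).

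From farnesyl diphosphate onward, FDFT1, squalene synthase, was at 442 and 558 CPM in the control and 259 to 438 CPM (median 376) at 24 h. Libraries of day 2 had 217 to 310.4 CPM (median 272) in DE(b), 284 to 338 CPM (median 299.8) in PM and 338 to 538 CPM (median 419) in LM. The control lay above all DE(b) and PM libraries, and every LM library lay above every DE(b) library. FDFT1 was lower than the control in DE(b) (log2 fold change -0.88 ± 0.14, edgeR adjusted p = 2.53e-05) and PM (log2 fold change -0.73 ± 0.14, edgeR adjusted p = 0.000245), and higher in LM than in DE(b) (log2 fold change 0.68 ± 0.10, edgeR adjusted p = 3.79e-06). In APS at 24 h it was lower as well (log2 fold change -0.54 ± 0.19, edgeR adjusted p = 0.0423), a call that was lost without APS-24h replicate 2 (0.434) or Control replicate 2 (0.318). Its 2 identifiers took a median of 47.8% and 52.2% of its reads, and the APS call was not made when they were tested as separate rows (edgeR adjusted p = 0.104).

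SQLE, the epoxidase that is a second control point of the path, was at 228 and 313 CPM in the control and 251 to 286 CPM (median 271) at 24 h. By day 2 the levels were 171 to 251 CPM (median 192) in DE(b), 203 to 312 CPM (median 248) in PM and 178 to 343 CPM (median 262) in LM. The 24 h libraries lay together, and DE(b) libraries were low but overlapped them at one edge. Its fall from 24 h to DE(b) (log2 fold change -0.47 ± 0.14, edgeR adjusted p = 0.00944) was the one call of SQLE in the 13 comparisons without a replicate block. LSS, lanosterol synthase, fell likewise (-0.47 ± 0.18, edgeR adjusted p = 0.0347) and was higher in LM than in DE(b) (0.56 ± 0.18, 0.0165), and both calls were lost when any of 8 and 3 single libraries was left out.

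SC5D, the desaturase that makes 7-dehydrocholesterol (chr11:121292681-121313410, plus strand), gave the largest difference of any member in the 13 comparisons. The control libraries had 132 and 185 CPM, those at 24 h 122 to 155 CPM (median 141), those of DE(b) 90.3 to 128 CPM (median 96.5), those of PM 121 to 149 CPM (median 138) and those of LM 312 to 655 CPM (median 486). Every LM library lay above every other library. By day 1 origin, LM libraries had 312 and 458 CPM after DE(a), 519 and 513 after APS, 518 and 655 after MPS and 438 and 452 after PPS. DE(a) held the lowest library, but its other library lay above both of PPS. SC5D rose in LM against the control (log2 fold change 1.63 ± 0.17, edgeR adjusted p = 5.77e-08) and 24 h (log2 fold change 1.76 ± 0.10, edgeR adjusted p = 1.86e-12). It was higher there than in PM (log2 fold change 1.88 ± 0.10, edgeR adjusted p = 7.25e-13) and in DE(b) (log2 fold change 2.25 ± 0.10, edgeR adjusted p = 4.7e-14). In DE(b) it was lower than at 24 h (-0.49 ± 0.10, 0.000232) and than in PM (-0.37 ± 0.10, 0.00338). The amnion genes that were also higher in LM have been given above, and their part in the SC5D difference was not tested.

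HSD17B7, a 3-ketosteroid reductase of the path (chr1:162790702-162812823, plus strand), followed another order. The control had 20.8 and 25.1 CPM. At 24 h it was at 35.7 and 27.4 CPM in DE(a), 46.2 and 32.5 in APS, 55.6 and 62.6 in MPS and 75.4 and 55.9 in PPS. Cells on day 2 had 19.7 to 26.0 CPM (median 22.3) in DE(b), 39.3 to 73.5 CPM (median 63.4) in PM and 22.8 to 37.2 CPM (median 26.4) in LM. MPS and PPS libraries lay above those of DE(a) and APS, and every PM library lay above every DE(b) and LM library.

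HSD17B7 was higher than the control in APS (log2 fold change 0.86 ± 0.26, edgeR adjusted p = 0.0195) and MPS (log2 fold change 1.46 ± 0.27, edgeR adjusted p = 0.000191). It was higher likewise in PPS (log2 fold change 1.54 ± 0.27, edgeR adjusted p = 0.000125) and PM (log2 fold change 1.40 ± 0.23, edgeR adjusted p = 3.12e-05). It was lower in DE(b) than in PM (log2 fold change -1.39 ± 0.13, edgeR adjusted p = 1.41e-08) and than at 24 h (log2 fold change -1.10 ± 0.13, edgeR adjusted p = 4.57e-07). It was also lower in LM than in PM (log2 fold change -1.08 ± 0.13, edgeR adjusted p = 5.58e-07) and than at 24 h (log2 fold change -0.79 ± 0.13, edgeR adjusted p = 2.47e-05). The APS call was lost without APS-24h replicate 1 (0.222) or Control replicate 1 (0.165), whereas those in MPS, PPS, PM and between media held in each leave-one-out fit. Reads of its pseudogenes were few, at no more than 0.149 CPM.

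CYP51A1, lanosterol demethylase, was at 164 and 229 CPM in the control and 236 to 351 CPM (median 282) at 24 h. The day 2 media gave 149 to 188 CPM (median 162) in DE(b), 226 to 516 CPM (median 313) in PM and 181 to 422 CPM (median 296) in LM. All PM libraries and all 24 h libraries lay above all DE(b) libraries. CYP51A1 was lower in DE(b) than in PM (log2 fold change -1.03 ± 0.15, edgeR adjusted p = 5.13e-06) and than at 24 h (-0.83 ± 0.15, 6.6e-05), and higher in LM than in DE(b) (0.84 ± 0.15, 6.73e-05). Within PM it was at 226 and 311 CPM after DE(a) and 436 and 516 after PPS, which did not overlap, but this difference of 0.84 ± 0.29 had an edgeR adjusted p of 0.0807.

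TM7SF2, a sterol reductase with an activity shared by LBR, varied with both treatments. It was at 33.4 and 31.6 CPM in the control, and at 24 h at 20.0 and 10.6 CPM in DE(a), 11.4 and 15 in APS, 9.15 and 14.1 in MPS and 25.8 and 42.8 in PPS. In DE(b) it was at 36.8 and 49.0 CPM after DE(a) and 11.1 and 18.8 after PPS, with 36.4 and 40.0 after APS and 28.0 and 25.8 after MPS. In LM it was at 37.2 and 55.1 CPM after DE(a), 13.4 and 26.1 after APS, 12.3 and 18.2 after MPS and 30.0 and 50.3 after PPS. Libraries from PPS lay above the others at 24 h and below them in DE(b), but neither the 4 treatments in DE(b) (edgeR adjusted p = 0.0864) nor the interaction with the medium of day 2 (0.126) passed the test, and the call over the 4 treatments at 24 h was lost without PPS-24h replicate 2 (0.526). TM7SF2 was lower than the control in MPS (log2 fold change -1.39 ± 0.45, edgeR adjusted p = 0.0222) and in PM (log2 fold change -0.97 ± 0.33, edgeR adjusted p = 0.0192), both lost without either control library (0.0794 and 0.0585 in MPS, 0.113 and 0.0861 in PM), and the former also without MPS-24h replicate 1 (0.179). It was higher in DE(b) (log2 fold change 0.82 ± 0.22, edgeR adjusted p = 0.0047) and LM (log2 fold change 0.77 ± 0.22, edgeR adjusted p = 0.00733) than in PM. Both media also exceeded 24 h, DE(b) (log2 fold change 0.72 ± 0.22, edgeR adjusted p = 0.00965) as well as LM (log2 fold change 0.68 ± 0.22, edgeR adjusted p = 0.0127). The gene overlaps VPS51 in the annotation.

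MSMO1, the sterol-C4-methyl oxidase, was at 126 and 153 CPM in the control and 115 to 209 CPM at 24 h. Levels on day 2 were 119.8 to 198 CPM in DE(b), 134 to 201 CPM in PM and 179 to 318 CPM in LM. LM libraries were high and overlapped those of the other media at their lower edge (LM against DE(b) 0.50 ± 0.14, edgeR adjusted p = 0.0054). NSDHL, which acts next to it at C4, was at 29.5 to 45.6 CPM in DE(b) and 38.8 to 70.1 CPM in LM (0.60 ± 0.13, 0.00055). EBP, the sterol isomerase, was called in none of the 13 comparisons (lowest edgeR adjusted p = 0.339).

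DHCR7, which makes cholesterol from 7-dehydrocholesterol and so follows SC5D, did not rise with it. It was at 206 and 214 CPM in the control and 194 to 258 CPM (median 214) at 24 h. On day 2 it was at 141 to 222 CPM (median 189) in DE(b), 149.9 to 259 CPM (median 202) in PM and 97.0 to 257 CPM (median 158) in LM. The ranges overlapped throughout, and in LM replicate 1 was below replicate 2 in all 4 conditions. DHCR7 was lower in LM than at 24 h (log2 fold change -0.47 ± 0.17, edgeR adjusted p = 0.0234), and its difference of -0.17 ± 0.17 from DE(b) did not pass (edgeR adjusted p = 0.494).

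Of the regulators, INSIG1, which retains the SREBP precursor, was at 89.0 and 94.1 CPM in the control and 77.8 to 119 CPM (median 104) at 24 h. Day 2 values were 59.9 to 114 CPM (median 82.2) in DE(b), 69.7 to 132 CPM (median 100.3) in PM and 82.1 to 219 CPM (median 119.9) in LM. By day 1 origin, LM libraries had 108 and 216 CPM after DE(a), 104 and 219 after APS, 131 and 193 after MPS and 82.1 and 98.6 after PPS, so cells from PPS were lowest and replicate 2 was higher in each. INSIG1 was higher in LM than in DE(b) (log2 fold change 0.78 ± 0.16, edgeR adjusted p = 0.000467) and PM (0.56 ± 0.16, 0.00729).

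The genes of the SREBP factors themselves were each called in 2 of the 13 comparisons. SREBF2 was at 406 and 368 CPM in the control and 328 to 550.2 CPM (median 395) at 24 h. In the day 2 media it stood at 315 to 393 CPM (median 341) in DE(b), 314 to 504 CPM (median 375) in PM and 372 to 485 CPM (median 409) in LM. SREBF1 was at 162 and 88.9 CPM in the control and 102 to 194 CPM (median 119.7) at 24 h. After the second day it was at 102 to 195 CPM (median 123) in DE(b), 126 to 152 CPM (median 132) in PM and 92.0 to 122 CPM (median 107) in LM. DE(b) and LM overlapped for both genes, although every LM library of SREBF1 lay below every PM library, and the control replicates of SREBF1 lay far apart. Between LM and DE(b) the 2 genes moved in opposite directions, SREBF2 by 0.28 ± 0.10 (edgeR adjusted p = 0.0302) and SREBF1 by -0.34 ± 0.12 (0.0274), and each call was lost without any of 8 single libraries (up to 0.102 and 0.105).

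STARD4, a carrier of cholesterol between membranes (chr5:111496033-111512590, minus strand), was higher than the control everywhere. The control had 74.5 and 94.2 CPM, the libraries at 24 h 117 to 199 CPM (median 140.1), those of DE(b) 125 to 209 CPM (median 169), those of PM 98.8 to 144 CPM (median 121) and those of LM 136 to 194 CPM (median 181). Every treated library lay above both controls. The rise was found in DE(a) (log2 fold change 0.72 ± 0.20, edgeR adjusted p = 0.0127), APS (0.74 ± 0.20, 0.00811), MPS (log2 fold change 1.12 ± 0.20, edgeR adjusted p = 0.000158) and PPS (log2 fold change 0.99 ± 0.20, edgeR adjusted p = 0.000632). On day 2 it was found in DE(b) (log2 fold change 1.06 ± 0.17, edgeR adjusted p = 2.29e-05), PM (0.48 ± 0.16, 0.0202) and LM (1.07 ± 0.17, 1.68e-05). The DE(a) call was lost without any of DE(a)-24h replicate 1 (0.0615), DE(a)-24h replicate 2 (0.0577) and Control replicate 1 (0.17), the APS call without APS-24h replicate 1 (0.124) or Control replicate 1 (0.128), and the PM call without Control replicate 1 (0.296). In PM, STARD4 was lower than at 24 h (-0.41 ± 0.10, 0.00148).

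In fatty acid synthesis, FADS1, the delta-5 desaturase of polyunsaturated fatty acids (chr11:61799627-61829318, minus strand), rose in each treatment. The control had 245 and 257 CPM, the libraries at 24 h 348 to 480.3 CPM (median 420.2), those of DE(b) 459 to 585 CPM (median 505), those of PM 525 to 629 CPM (median 593) and those of LM 494 to 641 CPM (median 544). No treated library overlapped the control. FADS1 rose against the control in DE(a) (log2 fold change 0.72 ± 0.15, edgeR adjusted p = 0.00147) and APS (log2 fold change 0.92 ± 0.15, edgeR adjusted p = 8.46e-05) at 24 h. On day 2 it was higher than the control in DE(b) (log2 fold change 1.06 ± 0.13, edgeR adjusted p = 6.49e-07), PM (log2 fold change 1.2 ± 0.13, edgeR adjusted p = 1.23e-07) and LM (log2 fold change 1.19 ± 0.13, edgeR adjusted p = 1.19e-07). All 7 of its calls against the control held in each leave-one-out fit. It rose again from 24 h to PM (log2 fold change 0.39 ± 0.08, edgeR adjusted p = 0.000218). FADS2, the delta-6 desaturase beside it on chromosome 11, was at 676 and 619 CPM in the control and 537 to 772 CPM at 24 h, and was called in none of the 13 comparisons (lowest edgeR adjusted p = 0.101). The 2 genes overlap in the annotation on opposite strands.

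**Figure D4:**
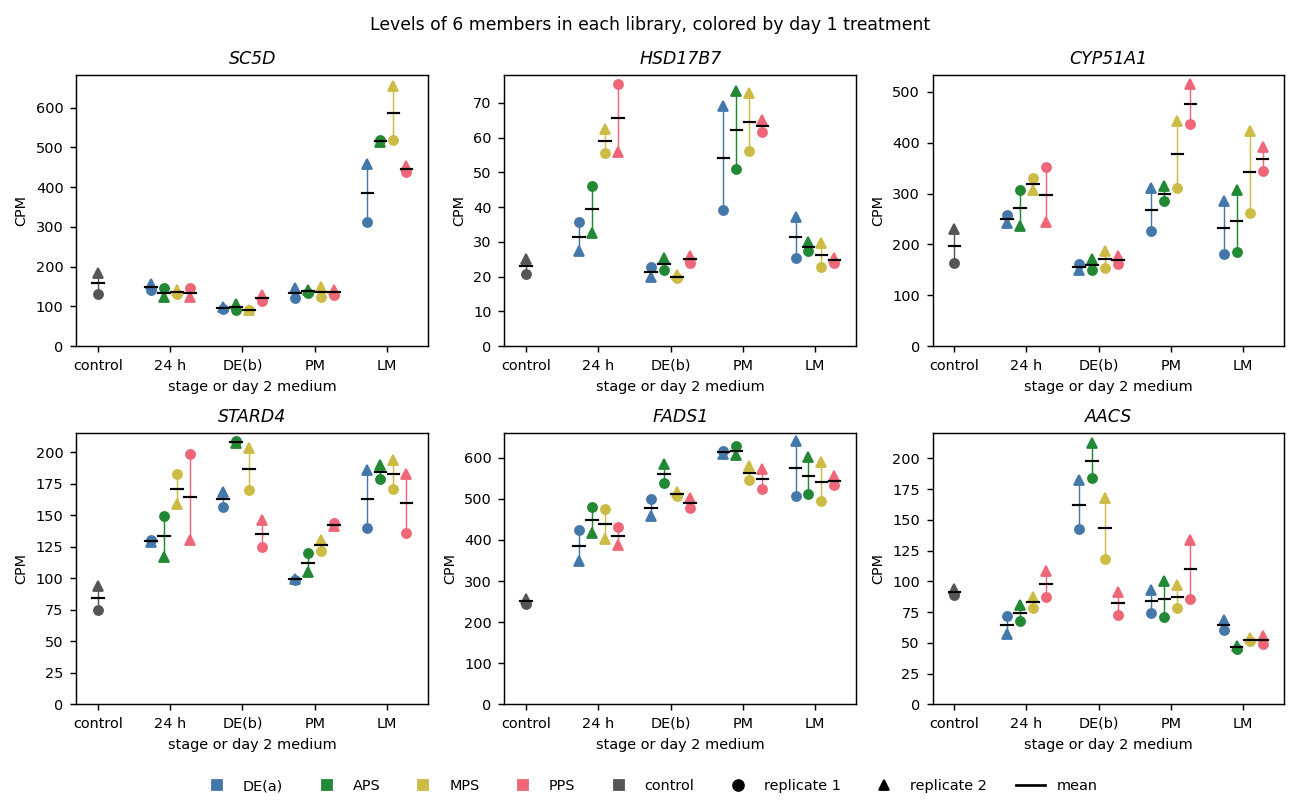
CPM of SC5D, HSD17B7, CYP51A1, STARD4, FADS1 and AACS (y axis, from 0) in each library by stage or day 2 medium (x axis), colored by day 1 treatment, with circles for replicate 1, triangles for replicate 2 and a black bar for their mean. SC5D stands above all else in LM, HSD17B7 is high in MPS and PPS at 24 h and in PM, FADS1 is above the control in every treated library, and AACS is high in DE(b) after DE(a), APS and MPS but not after PPS.

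AACS, which activates acetoacetate for lipid synthesis (chr12:125065434-125143333, plus strand), differed by both days. It was at 88.6 and 93.9 CPM in the control and at 57.2 to 108 CPM (median 79.5) at 24 h. In DE(b) it was at 142 and 183 CPM after DE(a), 184 and 213 after APS, 118 and 168 after MPS and 72.5 and 91.5 after PPS, against 70.9 to 134 CPM (median 89.3) in PM and 45.2 to 68.7 CPM (median 52.6) in LM. Libraries of DE(b) from PPS lay below all other DE(b) libraries, and every LM library lay below every DE(b) library. AACS was higher in DE(b) than in PM (log2 fold change 0.67 ± 0.11, edgeR adjusted p = 4.32e-05) and than at 24 h (log2 fold change 0.79 ± 0.11, edgeR adjusted p = 5.26e-06). It was lower in LM than in DE(b) (log2 fold change -1.37 ± 0.12, edgeR adjusted p = 1.75e-09) and PM (log2 fold change -0.70 ± 0.11, edgeR adjusted p = 2.59e-05). It was also lower there than at 24 h (log2 fold change -0.59 ± 0.11, edgeR adjusted p = 0.000149) and in the control (log2 fold change -0.72 ± 0.17, edgeR adjusted p = 0.00129).

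ACACA, the carboxylase that commits acetyl-CoA to fatty acids, was lower in LM. It was at 349 and 308 CPM in the control and 282 to 369 CPM (median 321) at 24 h. Libraries of day 2 had 263 to 331 CPM (median 285) in DE(b) and 274 to 396 CPM (median 296) in PM. In LM it was at 199.5 and 178 CPM after DE(a), 191 and 157 after APS, 239.5 and 214 after MPS and 364 and 301 after PPS. LM libraries from PPS stood within the range of the other stages, and the remaining 6 lay below it. ACACA was lower in LM than in the control (log2 fold change -0.52 ± 0.12, edgeR adjusted p = 0.00142) and DE(b) (log2 fold change -0.40 ± 0.08, edgeR adjusted p = 0.000404). One of its 2 identifiers took a median of 89.9% of its reads.

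FASN, fatty acid synthase, was at 1954 and 1448 CPM in the control and 1801 to 2882 CPM (median 2198) at 24 h. By day 2 the levels were 1892 to 2569 CPM (median 2106) in DE(b), 2029 to 2493 CPM (median 2378) in PM and 1324 to 2156 CPM (median 1853) in LM. It was lower in LM than at 24 h (-0.37 ± 0.12, edgeR adjusted p = 0.0103) with ranges that overlapped. SCD, the delta-9 desaturase, was at 1838 and 2044 CPM in the control and 1615 to 1808 CPM (median 1755) at 24 h. The day 2 media gave 1402 to 1791 CPM (median 1696) in DE(b), 1510 to 1936 CPM (median 1704) in PM and 1474 to 2501 CPM (median 1868) in LM. Both controls lay above the 24 h and DE(b) libraries, but SCD was called against the control in none of the 7 comparisons. Its call in LM against PM (0.22 ± 0.08, 0.0342) was lost without any of 8 single libraries (up to 0.127).

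ELOVL6, which elongates C16 fatty acids, was at 169.8 and 203 CPM in the control and 159 to 224 CPM (median 195) at 24 h. Levels on day 2 were 145 to 184 CPM (median 165) in DE(b), 189 to 222 CPM (median 207) in PM and 149.6 to 229.6 CPM (median 194) in LM. Every PM library lay above every DE(b) library, but the differences were small: -0.26 ± 0.07 for DE(b) against PM (edgeR adjusted p = 0.00586), -0.25 ± 0.07 against 24 h (0.00739) and 0.22 ± 0.07 for LM against DE(b) (0.0216). ACLY, which supplies cytosolic acetyl-CoA to both paths, was called in none of the 13 comparisons (lowest edgeR adjusted p = 0.152).

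The 4 day 1 treatments were then compared with each other inside each stage, to ask whether levels still differed by day 1. At 24 h, 2 members differed, TM7SF2 and HSD17B7 (6.67%, against 18.8% of genes; edgeR adjusted p of 0.0456 and 0.0197). In DE(b), AACS differed (3.33%, against 16.6%; 0.00312). In PM, 0 members differed by edgeR (against 7.47%; 1 at an unadjusted p under 0.05, and 0 by DESeq2). In LM, TM7SF2, SC5D and ACACA differed (10%, against 19.6%; 0.0331, 0.0486 and 0.000239). Members were thus called for day 1 at a lower share than all genes in each stage, a contrast for which no test was made. Of these calls, that of ACACA held in each leave-one-out fit. TM7SF2 and HSD17B7 at 24 h were lost without any of 4 and 2 libraries (up to 0.526 without PPS-24h replicate 2, and 0.0964 without DE(a)-24h replicate 2), AACS without PPS-DE(b) replicate 1 (0.0818), and TM7SF2 and SC5D in LM without any of 4 and 6 libraries (up to 0.127 and 0.263). With only the libraries compared, TM7SF2 and HSD17B7 at 24 h and TM7SF2 and SC5D in LM were lost. The counts fell to 1 at 24 h without any of 6 libraries (both of APS-24h, both of PPS-24h, MPS-24h replicate 1 and DE(a)-24h replicate 2), to 0 in DE(b) without PPS-DE(b) replicate 1 and to 1 in LM without PPS-LM replicate 2.

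PPS and DE(a), the treatments without and with the most activin A, also differ in bFGF, BMP4 and CHIR99021, so their differences cannot be assigned to 1 factor. Between them, HSD17B7 was higher in PPS at 24 h (log2 fold change 0.99 ± 0.26, edgeR adjusted p = 0.00992), a call lost without PPS-24h replicate 1 (0.0938) or DE(a)-24h replicate 2 (0.0968). ACACA was higher after PPS in LM (log2 fold change 0.91 ± 0.16, edgeR adjusted p = 0.000395). In DE(b), AACS (log2 fold change -0.95 ± 0.23, edgeR adjusted p = 0.00543) and TM7SF2 (log2 fold change -1.49 ± 0.45, edgeR adjusted p = 0.0246) were lower after PPS, and both calls were lost without PPS-DE(b) replicate 1 (0.1 and 0.243) or DE(a)-DE(b) replicate 2 (0.0921 and 0.166). A test of whether the effect of day 1 depended on the medium of day 2 called AACS (3.33% of members, against 13.2% of genes; edgeR adjusted p = 0.0112), and this call was lost without PPS-DE(b) replicate 1 (0.0954). With any of 7 other libraries left out, 2 members were called: MPS-PM replicate 1, MPS-PM replicate 2, PPS-PM replicate 1, APS-PM replicate 2, DE(a)-DE(b) replicate 2, APS-DE(b) replicate 2 and DE(a)-LM replicate 2.

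Replicates differed in the levels of sterol genes, and the share of all genes that shifted likewise was not counted. On day 2, 14 of the 18 cholesterol members were higher in replicate 2 than in replicate 1 in at least 10 of 12 conditions, and 7 of them (HMGCS1, MVK, MVD, IDI1, SQLE, LSS and DHCR7) in 12 of 12. SREBF2 and AACS were also higher in replicate 2 in 12 of 12, and ACACA was lower in 12 of 12. At 24 h, 15 of the 18 were higher in replicate 2 in 2 or fewer of 4 conditions. A gene with no shift would often meet that cutoff too. The part of this shift in the comparisons of day 2 with 24 h was not tested in the fit as reported. Read inside each replicate from CPM, without the TMM scaling of the fit, 74 of 77 called differences between stages had the same sign in both. The exceptions, with replicates 1 and 2, were IDI1 in PM against 24 h (-0.38 and 0.00), INSIG1 in LM against 24 h (-0.11 and 0.97) and SCD in LM against PM (-0.02 and 0.32). Those of IDI1 and SCD rest on a value near 0, whose sign can depend on the scaling. Calls came from a fit to both replicates, which favors a shared sign, so this count does not measure the shift. Sizes could differ: in LM against 24 h, replicates 1 and 2 gave 0.01 and 0.87 for MSMO1 and -0.91 and -0.09 for DHCR7. Each cholesterol member called lower in DE(b) or PM than at 24 h fell more in replicate 1. Replicates 1 and 2 gave -0.72 and -0.28 for ACAT2 in DE(b) and -0.61 and -0.14 for HMGCS1 in PM. Between LM and DE(b), all 17 called members had the same sign in both replicates, with SC5D at a log2 difference of 2.17 in replicate 1 and 2.27 in replicate 2.

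Genes next to the members were counted from lists. Of 4 genes that control SREBP processing, DE(b) and LM each had 3 higher and 1 lower than the control, where 22.4% and 24.3% of all genes were higher and 22.9% and 24.6% lower. INSIG2 was at 5.17 to 8.97 CPM at 24 h and 9.59 to 16.8 CPM in LM (log2 fold change 0.76 ± 0.12, edgeR adjusted p = 7.65e-06). SCAP was highest in PM, at 123 to 232 CPM, against 76.0 to 98.9 CPM in DE(b) (log2 fold change -0.81 ± 0.12, edgeR adjusted p = 6.71e-06) and 63.8 to 89.9 CPM in LM (log2 fold change -0.96 ± 0.12, edgeR adjusted p = 7.06e-07). Of 8 other sterol and prenyl genes, 4 were higher and 1 lower in LM than in DE(b) (all genes 19.8% each way), and 3 were higher and 4 lower in DE(b) than at 24 h (all genes 24.8% and 26.2%). SOAT1, which esterifies cholesterol, was at 5.24 and 6.01 CPM in the control and at 22.6 CPM or more in every day 2 library (PM against control log2 fold change 3.06 ± 0.19, edgeR adjusted p = 2.12e-11). LBR, whose reductase activity TM7SF2 shares, was at 134 and 160 CPM in the control, 152 to 643 CPM at 24 h and 149 to 262 CPM in LM (log2 fold change -1.06 ± 0.10, edgeR adjusted p = 3.69e-09).

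Of 14 other fatty acid genes, 5 were higher and 5 lower in LM than at 24 h (all genes 27.4% and 28.6%), and 5 were higher and 2 lower in DE(b) than in the control (all genes 22.4% and 22.9%). SCD5, a second delta-9 desaturase, was at 1.04 and 1.17 CPM in the control, 5.13 to 40.4 CPM in DE(b) and 0.621 to 3.88 CPM in LM (LM against DE(b) log2 fold change -2.83 ± 0.28, edgeR adjusted p = 2.67e-08). ACSS2, which makes acetyl-CoA from acetate, was at 19.6 to 37.6 CPM in DE(b) and 50.8 to 106 CPM in LM, without overlap (log2 fold change 1.33 ± 0.17, edgeR adjusted p = 7.7e-07).

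Over the 17 condition means, the median Pearson r between pairs of cholesterol members was 0.386 (153 pairs), against 0.149 between fatty acid members (28 pairs) and 0.059 between the groups (144 pairs). These are descriptions without a test, and the conditions share day 1 and day 2 treatments. The 10 genes outside the list that were most like the mean profile of the cholesterol members, of 12256 compared, were ID3 (r = 0.879), HABP4, DPH1, PEG3, NPTXR, ERG28 (r = 0.834), CTNNAL1, BAIAP2L1, ZFP36L1 and ETFDH (r = 0.808). Among those closest to the fatty acid members were BRD2 (r = 0.823), PITPNA, ZDHHC5, MAPK1IP1L, SHF, ZCCHC14, IDE, TMEM254 and XKR8 (r = 0.693).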

How the data were processed

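RNA from 34 libraries was sequenced by the authors as stranded, poly(A)-selected, paired-end reads. Per the labels and methods, the authors estimated counts with Salmon 1.10.2 on GRCh38 with sequence and GC bias correction and summed them to genes in R 4.4.2. The deposited tables, one for each replicate number, hold these expected counts per gene, which were rounded to whole numbers here. Rows of 1 symbol were summed (FDFT1, LSS and ACACA among the members).

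Genes were filtered by condition with filterByExpr, scaled by TMM and tested with edgeR 4.0.16 (R 4.3.3), by the quasi-likelihood test with 1 mean per condition. All 34 libraries entered the fit, and p-values were adjusted after Benjamini and Hochberg for 17888 genes, with calls at 0.05. The residual degrees of freedom were 17. Day 2 media and the 24 h stage were compared as means over 4 day 1 treatments. The study calls the 2 replicates of a condition biological, while the labels do not say what separated them. The p-values measure the spread between replicates within conditions. The fit has no term for a shift shared by libraries of the same replicate number. Where such a shift differs between stages, as described above, the p-values and SEs of comparisons between stages do not measure it. Totals were 15522780 to 23439799, and the lowest count of a member was 131.

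The members and lists were chosen with earlier results of these data known. All 30 members are named by role. Per-library values or ranges are given for 13 chosen members and those with the largest change in a comparison, and fold change, SE and adjusted p for the called members that rose most (2) and fell most (2) in each comparison. Genes outside the members are named by the largest rise or fall in a list, or as the 10 nearest by Pearson r among genes reaching 10 CPM in some condition; SCAP, INSIG2, SCD5, LBR, ACSS2 and ABCG1 were picked after their values were seen where this rule does not name them. One gene that the rule names is not reported here. Scores and likeness used log2(CPM + 1), computed here. Alternatives were RLE scaling, no filter, a replicate block, DESeq2 1.42.0, only the libraries compared, each library left out in turn and, chosen after seeing the data, rows of 1 symbol tested separately. The fit was also run on simulated counts, for DE(b) against PM and LM against PM. These counts held no shift shared by replicate number, so the simulation cannot speak to such a shift. Tables and figures were made with Python 3.11.15, pandas 2.3.3, numpy 2.4.6 and matplotlib 3.10.9.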

Additional observations from a re-analysis of the deposited data

Results flagged for a closer look

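The effect of the day 1 treatment on AACS differed between the day 2 media (edgeR interaction adjusted p = 0.0112). In DE(b) it was at 72.5 and 91.5 CPM after PPS and at 118 to 213 CPM after the other 3 treatments, while in LM all 8 libraries were at 45.2 to 68.7 CPM. The test did not pass without PPS-DE(b) replicate 1 (adjusted p = 0.0954).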

How the results depend on the processing

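None of the 51 fold changes chosen by the naming rule reversed in direction, and other differences were not checked for this. Numbers of members called moved by more than 1.5 times under these alternatives. With no filter they were 4 for DE(a) and 8 for PPS against the control, 2, 2 and 6 for the day 1 treatments in DE(b), PM and LM, and 3 for the interaction. With DESeq2 they were 5 for PPS, 2 for day 1 in DE(b) and 3 for the interaction. With only the libraries compared they were 5 for PPS and 0, 3 and 1 for day 1 at 24 h, in DE(b) and in LM. RLE scaling and rows of 1 symbol tested separately each gave 2 for the interaction. Leaving out single libraries gave 1 to 3 for DE(a), 2 to 4 for APS, 3 to 6 for MPS, 3 to 5 for PPS, 3 to 8 for PM and 5 to 12 for LM against the control, and 8 to 14 for LM against 24 h. It gave 1 to 2, 0 to 1 and 1 to 3 for day 1 at 24 h, in DE(b) and in LM, and 0 to 2 for the interaction. The cause was not tested.

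Replicate numbers were checked for pairing. Deviations of same-numbered libraries from their condition means correlated at -0.196 to 0.567 (median 0.161; 95 of 136 pairs over 0.1), which falls short of every pair passing 0.1, the level set for taking numbers as pairs, and the labels name no shared batch. With the replicate block the counts were 4 for DE(a), 6 for PPS, 2 for day 1 in DE(b) and 3 for the interaction, and the 51 fold changes chosen by the naming rule kept their calls. The block lost no called member in any comparison and gained up to 3 in each, among them SQLE, LSS and MVD in DE(b) against PM, PMVK, SCD and SQLE in LM against DE(b), and TM7SF2 and ACACA in the interaction. Of 117 called differences in 13 comparisons, 75 held in every leave-one-out fit. Comparisons with the control rest on its 2 libraries.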

Other observations

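Some genes of sterol export and of fatty acid oxidation were called. Of 6 LXR receptors and targets, which answer to oxysterols, 2 were higher than at 24 h in DE(b) (all genes 24.8%). In LM 3 were higher and 1 was lower (all genes 27.4% and 28.6%), and in PM 4 were higher and 1 was lower (all genes 23.1% and 25.1%). ABCA1, a cholesterol exporter, was at 10.2 and 41.1 CPM in the control, 0.752 to 12.7 CPM at 24 h and 49.5 to 180 CPM in DE(b) (DE(b) against 24 h log2 fold change 4.96 ± 0.60, edgeR adjusted p = 4.71e-07). ABCG1, another exporter, was at 40.8 to 94.1 CPM in PM and at 11.1 CPM or less in every other library, with 5 of 8 libraries at 24 h at 3 counts or fewer.

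Of 9 genes of fatty acid oxidation, 6 were higher and 1 was lower in LM than at 24 h, against 27.4% and 28.6% of all genes. CPT1A, which admits fatty acids to mitochondria, was the one that fell, from 6.33 to 26.6 CPM at 24 h to 0.42 to 3.42 CPM in LM (log2 fold change -3.84 ± 0.21, edgeR adjusted p = 1.43e-12). It was lower in LM than in DE(b) as well (log2 fold change -2.69 ± 0.21, edgeR adjusted p = 4.64e-10).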
